A study of Mus musculus with 15 samples.

Results

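The alpha chain of a T cell receptor meets its ligand mainly through the CDR3, a loop built where a variable (V) segment is joined to a joining (J) segment. The loops described here carry an end typical of the mouse J segment TRAJ34, shortened on the side of the junction. They were chosen by the peptide end read in the libraries: every CDR3 that ends in NTNKVV, hereafter the core, but not in SSNTNKVV, the full end, was taken. This gave 2995 trimmed loops among the 92219 distinct CDR3s of 15 libraries, while 994 CDR3s carried the full end. Membership was set by the letters of the loop and not by its level in any group, but the end itself was chosen with earlier results of these data known. In a trimmed loop 1 or both serines before the core are missing or replaced. Of the 2995, 1554 keep the serine next to the core and are called loops with 1 serine before the core. The other 1441 lack it and are called loops without a serine before the core, whatever stands further out.

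All cells were sorted CD8b+ CD4neg T cells of C57BL/6 males with the genotype TCRbtg, a transgene that fixes the beta chain, so that receptors differ in the alpha chain. Naive libraries (CD44lo CD122neg) and MP libraries (memory phenotype, CD44hi CD122+) came from spleen pooled with axillary, brachial, cervical, inguinal and periaortic lymph nodes of males aged 9 weeks, with 5 libraries each. The 5 Tumour libraries came from digested prostate lobes of TCRbtg TRAMP+/- males aged 27 weeks, a model of prostate cancer in which the probasin promoter, active in prostate epithelium, drives a viral oncogene, and had no CD44 or CD122 gate. Tumour libraries differ from all others in tissue, age, genotype and gate at once, and these cannot be told apart. The lists hold CDR3 peptides, so that no marker gene could be checked. The labels speak of 5 mice and do not say whether a Naive and an MP library of one number share a mouse. If any libraries share a mouse or are technical repeats, p-values measure only the spread between these libraries.

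During V(D)J recombination in the thymus, nucleases trim the ends of the V and J segments and the enzyme TdT adds untemplated nucleotides before the ends are ligated. The residues at the junction are therefore the most variable of the loop, while those further into the J segment are read from the germline. A loop that keeps the whole start of its J segment had little or no trimming on that side. A serine before the core can be germline or re-made from added nucleotides, which the peptides do not tell apart, and nucleotide sequences that encode 1 peptide are counted together.

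The loops that lead each group are shown first, because the results turn on the few residues that stand before the core. The leading trimmed loop of all 5 Naive libraries, the leading loops of the MP libraries and the leading loop of all 5 Tumour libraries were, in this order:
Naive lead: ALGPSNTNKVV
MP lead in MP 2, 3 and 5: ALASNTNKVV
MP lead in MP 1: APSNTNKVV
MP lead in MP 4: ALGTSNTNKVV
Tumour lead: AASASNTNKVV
Other loops that recur below show further residues before the core:
Naive, aspartate before the serine: ALSDSNTNKVV
Naive, no serine before the core: ALSDTNTNKVV
Tumour, proline before the serine: AASPSNTNKVV
Tumour, no serine before the core: AASAANTNKVV
The full end for comparison, common in MP: ALGSSNTNKVV

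The libraries held 547665 to 943699 reads, and a loop was listed from 2 reads upward. Naive libraries listed 632 to 1149 trimmed loops, MP libraries 101 to 426 and Tumour libraries 68 to 126. MP 1 and MP 5 stood apart, with 12401 and 13950 distinct CDR3s and 383 and 426 trimmed loops, against 2216 to 3392 CDR3s and 101 to 150 trimmed loops in MP 2 to 4. Within a library, many trimmed loops differed by 1 substitution from another CDR3 that had 100 times their reads or more: 15 ± 1.24% (SD, n = 5) of the trimmed loops of a Naive library, 36 ± 17.5% in MP and 66.7 ± 12.1% in Tumour. Such loops took only 2.15 ± 0.35%, 1.91 ± 0.944% and 1.47 ± 0.787% of the reads of trimmed loops. How many of them are reading errors was not tested. The counts of reads measure RNA, so that fewer cells of a clone and less RNA per cell cannot be told apart, and the number of sorted cells is not in the labels.

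Trimmed loops took about equal shares of reads in Naive and MP libraries and a larger share in tumours on average. Their share of reads was 4.36, 5.31, 4.36, 5.77 and 4.08% in Naive 1 to 5, 3.37, 4.58, 4.49, 6.66 and 3.4% in MP 1 to 5 and 7.27, 9.87, 13.9, 10.4 and 5.59% in Tumour 1 to 5. The means were 4.78 ± 0.724%, 4.5 ± 1.34% and 9.42 ± 3.2% (SD, n = 5 each). The Naive and MP ranges overlap, and Tumour 5 lies below Naive 4 and MP 4, so that the Tumour range overlaps with both. MP without MP 1 and MP 5 averaged 5.24%. The full end ordered the groups differently: it was highest in MP, at 14.7 ± 1.77%, against 5.18 ± 0.703% in Naive and 2.22 ± 0.91% in Tumour libraries.

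The trimmed share of all reads with the core separated the groups. It was 47.3, 47.5, 45.6, 49.97 and 49.5% in Naive 1 to 5, 20.8, 22.9, 21, 30.3 and 20.9% in MP 1 to 5 and 81.3, 75, 91.2, 77.1 and 77% in Tumour 1 to 5. No ranges overlap, with MP lowest and Tumour highest; MP 2 to 4 alone averaged 24.7%. When each distinct loop counts once whatever its reads, the trimmed share was 70.1 ± 0.853% in Naive and 67.1 ± 5.61% in MP, whose ranges overlap, and 80.9 ± 6.46% in Tumour. These sums are given without a test, since the loops were selected with earlier results of these data known.

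**Figure D1:**
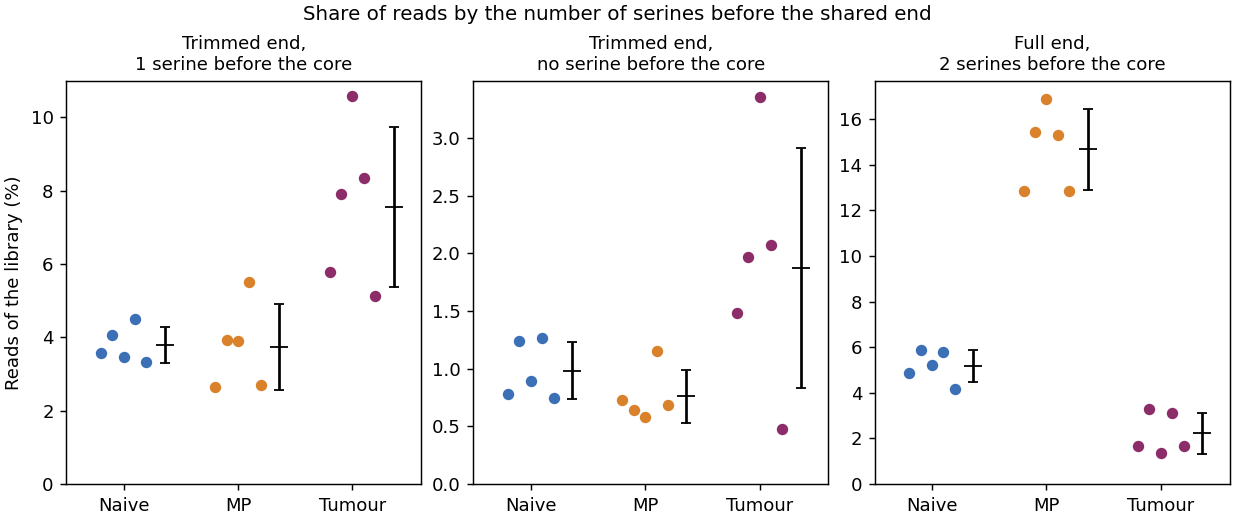
Share of a library's reads (y axis, %, scaled separately in each panel and starting at 0) in loops with 1 serine before the core, none, or the full end of 2 serines, by group on the x axis. Points are libraries 1 to 5 from left to right and bars the mean ± SD. Both kinds of trimmed loop overlap between Naive and MP, while the full end is highest in MP and lowest in Tumour.

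The ends themselves were tested by adding up all reads of the series by the last 7 residues of a CDR3, with the end SNTNKVV divided into the full end and the rest, and fitting every such end class with edgeR's quasi-likelihood test with Benjamini-Hochberg adjustment over all of them. Between MP and Naive, trimmed loops with 1 serine stood at 3.74 ± 1.17% and 3.79 ± 0.487% of reads (log2 fold change -0.02 ± 0.18, adjusted p = 0.941 by edgeR). None of the 17 trimmed end classes tested was called in either direction, where 27.4% of all end classes were called higher and 21.8% lower in MP; 1 of the 17 had an unadjusted p under 0.05. DESeq2 called 1 higher and 2 lower. Single libraries moved this count: edgeR called 1 higher without MP 2, and 1 lower without MP 1, 2 without MP 4, 1 without MP 5 and 4 without MP 1 and MP 5 together. The full end rose in the same fit (log2 fold change 1.50 ± 0.11, adjusted p = 6.65e-07 by edgeR). Whether the full and the trimmed ends differ in their fold change was not tested.

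In tumours 2 of the 14 trimmed end classes tested against MP and 2 of the 15 tested against Naive were called higher, where 5.48% and 5.71% of all end classes were. They were the same pair in both comparisons, named here after their values were seen: 1 serine before the core, and alanine in place of the serine (ANTNKVV). Loops with 1 serine took 7.55 ± 2.18% of tumour reads (against MP log2 fold change 1.01 ± 0.33, adjusted p = 0.0177; against Naive log2 fold change 0.99 ± 0.24, adjusted p = 0.00522 by edgeR). Their Tumour and MP ranges overlap, and the call against MP was lost without MP 1 and MP 5 (log2 fold change 0.76, edgeR adjusted p = 0.134). Without a filter on low counts both calls were lost (edgeR adjusted p = 0.189 against MP and 0.0556 against Naive).

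Loops that end in ANTNKVV took 1.34, 1.79, 2.54, 1.86 and 0.163% of reads in Tumour 1 to 5, against 0.148 to 0.222% over the MP libraries and 0.173 to 0.295% over the Naive ones. Tumour 5 lies at the level of the other groups and the other 4 tumours lie above all of them. The loop AASAANTNKVV alone took 1.21% of tumour reads on average, of 1.54% for this class. By edgeR the log2 fold change of the class was 3.14 ± 0.68 against MP (adjusted p = 0.00652) and 2.76 ± 0.62 against Naive (adjusted p = 0.00346). Against MP, 1 trimmed end class was lower in tumours, that with isoleucine before the core, which no tumour lists; it was not called without MP 1, MP 3 or MP 5, while 2, 3 and 2 classes were lower without Tumour 2, 3 and 4. Against Naive, 5 were lower, with aspartate, phenylalanine, isoleucine, glutamine or valine before the core. Lower calls covered 52.9% of all end classes against MP and 56.5% against Naive. The full end was lower against MP (log2 fold change -2.73 ± 0.32, adjusted p = 0.000335 by edgeR), though not called with DESeq2 (-0.39, adjusted p = 0.486). It was also lower against Naive (log2 fold change -1.22 ± 0.31, adjusted p = 0.00626 by edgeR), but against Naive it was not called with TMM factors (-0.28, edgeR adjusted p = 0.434) and the direction turned with the size factors of DESeq2 (0.80). Against Naive, the DESeq2 scaling moved the median end class by 2.29 on the log2 scale.

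Alanine and proline were the residues found most often by reads before the kept serine in each group, and their balance differed between tumours and the rest. Alanine before SNTNKVV took 0.78, 0.754, 0.775, 0.951 and 0.775% of reads in Naive 1 to 5, 0.773, 1.36, 1.37, 1.47 and 0.786% in MP 1 to 5 and 3.73, 4.51, 5.82, 5.81 and 3.07% in Tumour 1 to 5. Every tumour lies above every Naive and MP library. The lead AASASNTNKVV alone took 3.62, 3.51, 3.99, 4.5 and 2.35% in Tumour 1 to 5, so that most of this class in tumours was 1 loop. Whether the groups differ without it was not tested. Proline before SNTNKVV took 0.901 ± 0.144%, 1.09 ± 0.186% and 1.74 ± 0.971% of reads, with overlapping ranges. As a share of the reads of trimmed loops alone, alanine stood at 17.1% in Naive, 25.6% in MP and 49.9% in Tumour on average. These residues are described without a test.

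The acidic residues separated Naive from the other groups. Aspartate before SNTNKVV took 0.324, 0.219, 0.336, 0.357 and 0.379% of reads in Naive 1 to 5, 0.00726 to 0.128% in MP libraries, and was listed in Tumour 5 alone among tumours, at 0.000848%. Glutamate took 0.193 to 0.27% in Naive, up to 0.017% in MP, where it was listed in MP 1 and MP 5 alone, and was listed in no tumour. In Naive most of each acidic class lay in 1 loop. ALSDSNTNKVV took 0.3% of Naive reads on average, of 0.323% for aspartate. ALSESNTNKVV took 0.243%, of 0.246% for glutamate. Valine and glycine were also more common in Naive than in MP: valine took 0.321 ± 0.071% against 0.0384 ± 0.0341%, and glycine 0.248 ± 0.038% against 0.0155 ± 0.0163%, without overlap. Threonine and phenylalanine were higher in MP than in Naive on average, with threonine at 0.781 ± 0.493% against 0.336 ± 0.0881% and phenylalanine at 0.209 ± 0.108% against 0.0608 ± 0.0432%. Both ranges overlap between the subsets, and MP 4 was the highest MP library for both residues.

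**Figure D2:**
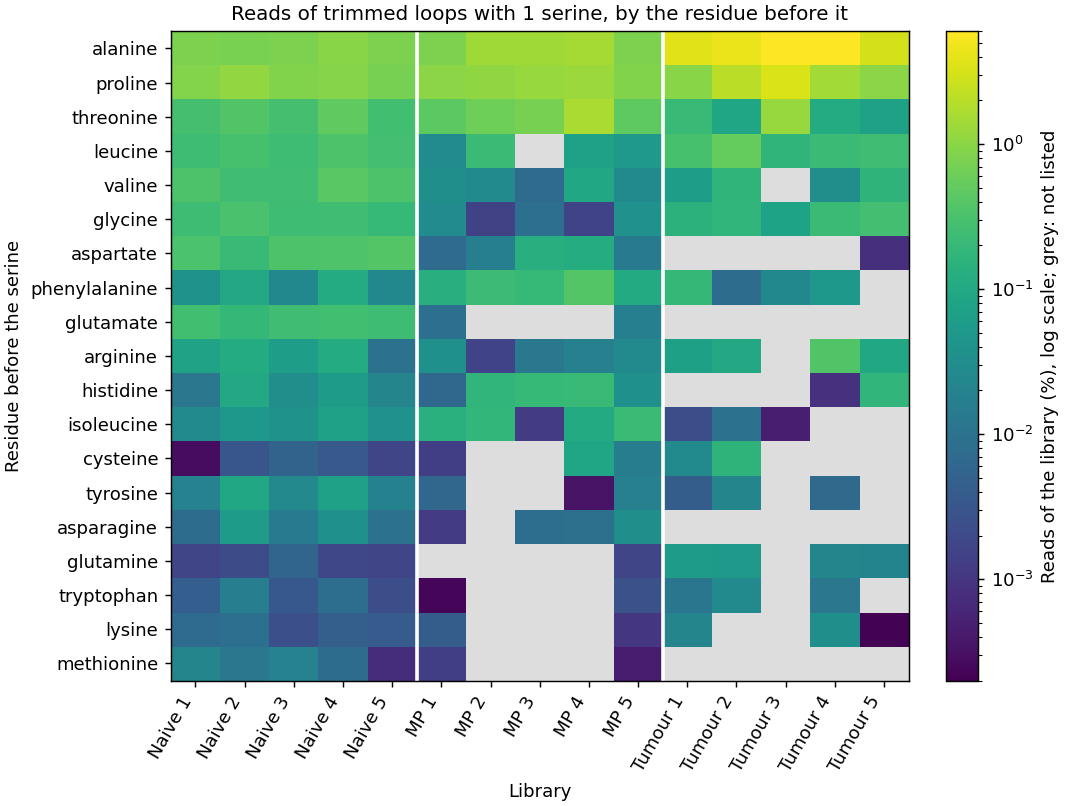
Share of reads (colour, %, log scale; grey where not listed) of trimmed loops with 1 serine before the core, by the residue before that serine (rows, by mean share over all libraries) and library (columns; white lines divide the groups). Alanine is brightest in the 5 tumours, and aspartate and glutamate fade from Naive to Tumour.

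Loops without a serine next to the core were the smaller kind, with 0.984 ± 0.249% of all Naive reads, 0.76 ± 0.229% of MP and 1.87 ± 1.04% of Tumour reads. That was 20.4, 17.3 and 18.6% of the reads of trimmed loops on average. In Naive the residue most often found next to the core was threonine, at 0.359, 0.456, 0.381, 0.484 and 0.364% of reads in Naive 1 to 5. In MP the threonine class took 0.181, 0.185, 0.127, 0.724 and 0.0975% in MP 1 to 5, with MP 4 above all Naive libraries and the other 4 below them. Tumours listed it at 0.00269 to 0.238%, all below Naive (log2 fold change -2.48 ± 1.07, adjusted p = 0.0685 by edgeR, not called). Proline next to the core took 0.135 ± 0.0613%, 0.166 ± 0.0473% and 0.0601 ± 0.0446% of reads and glycine 0.0713 ± 0.0266%, 0.0312 ± 0.0242% and 0.0554 ± 0.0868% in Naive, MP and Tumour. Neither was called in any of the 3 comparisons.

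The first 2 residues of the loop, which in longer loops are read mainly from the V segment, differed between groups too. In the shortest loops they reach the residues used in the choice, as in ASNTNKVV and APSNTNKVV. Loops that start with AL held 61.2 ± 3% of the reads of trimmed loops in Naive and 53.2 ± 10.3% in MP, but 3.27 ± 2.51% in Tumour. Loops that start with AA held 93.2, 86.9, 75.5, 85.6 and 93.2% in Tumour 1 to 5, against 4.22 to 7.15% in Naive and 1.45 to 7.85% in MP. Over all CDR3s of the libraries, AA starts held 45.1% of reads in Tumour, 29.5% in Naive and 24.1% in MP on average, and AL starts 10.9, 30.2 and 39.8%. The order of Tumour against both other groups was thus the same in the whole libraries. Among full-end reads AA starts held 70.4 ± 16.1% in Tumour, 3.54 ± 0.676% in Naive and 0.248 ± 0.124% in MP. A start of AP held 17.3 ± 6.36% of the reads of trimmed loops in MP against 1.48 ± 0.317% in Naive, without overlap. Over all CDR3s it held 4.67 ± 0.925% of reads in MP and 2.11 ± 0.1% in Naive, also without overlap. APSNTNKVV alone took 0.662% of all MP reads on average, of 0.742% for all trimmed loops that start with AP. Its proline is the residue before the kept serine. The V segment was not given in the lists, and a start of 2 residues can come from several V segments.

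Most distinct trimmed loops had 11 residues (1319 of 2995), followed by 12 (729) and 10 (514). In tumours 95.7, 97.4, 90.2, 96.7 and 97.7% of the reads of trimmed loops in Tumour 1 to 5 lay in loops of 11 residues, against 54.6 to 60.3% in Naive and 32.8 to 47.1% in MP. MP libraries carried more short loops: 9 residues held 33, 19.7, 28.1, 19.3 and 27.7% in MP 1 to 5 and 6.54 to 9.18% in Naive, without overlap. The mean length by reads was 10.2 ± 0.157 residues in MP, 10.7 ± 0.0763 in Naive and 11 ± 0.0499 in Tumour, in this order without overlap, while full-end loops averaged 11.1 ± 0.0398, 11 ± 0.0892 and 11 ± 0.452. All CDR3s of the libraries averaged 10.9 ± 0.0513, 11.2 ± 0.0359 and 11.4 ± 0.113 residues, in the same order. The net charge by reads (lysine and arginine against aspartate and glutamate) was 0.785 ± 0.0268 in Naive trimmed loops, 0.997 ± 0.05 in MP and 1.01 ± 0.0163 in Tumour. Naive lies below both other groups in every library. Over all CDR3s the charge was 0.536 ± 0.0155 in Naive, 0.615 ± 0.00785 in MP and 0.702 ± 0.125 in Tumour. Naive was again lowest, but Tumour 5 at 0.55754 lay only just above Naive 4 at 0.55698. In full-end loops Naive was highest, at 1.01 ± 0.00642, against 0.955 ± 0.0153 in MP and 0.897 ± 0.0422 in Tumour.

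**Figure D3:**
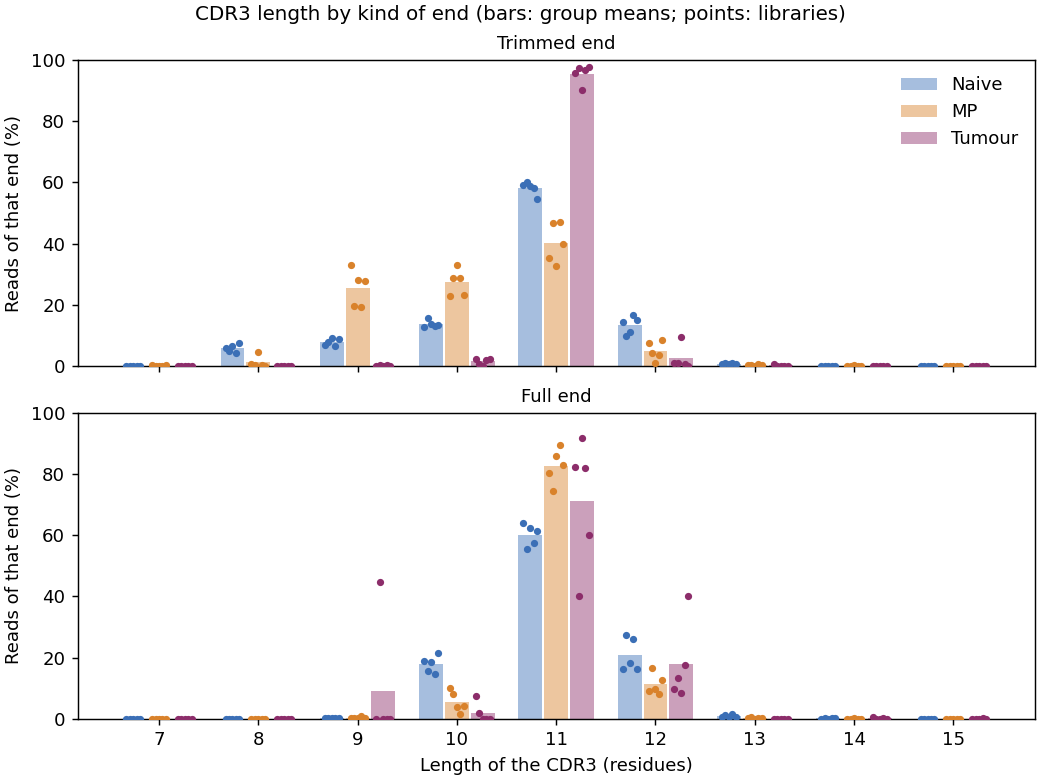
Share of the reads of trimmed (top) and full-end (bottom) loops (y axis, %) by CDR3 length in residues (x axis). Bars are group means and points the 5 libraries of a group. Tumour reads of trimmed loops gather at 11 residues, and MP reads spread to 9 and 10 residues; lengths above 15 are not drawn.

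Between MP and Naive the summed shares of trimmed loops overlapped, but the single loops that took them differed. Of the 2995 trimmed loops, 199 had at least 10 reads in at least 3 of the 10 libraries and were tested, with p-values adjusted over all 5954 CDR3s tested. In MP 29 were higher (14.6% of those tested) and 94 lower (47.2%), against 12.6% and 48.1% of all CDR3s, so that the shares lie near those of all CDR3s. Their median log2 fold change was -3.08, beside -3.35 for all CDR3s tested. Among the 94, 67 were listed in no MP library, and among the 29, 8 in no Naive library. Such loops passed the filter through the group that holds them. Some loops listed in both groups also met it through 1 group alone. Among those named below, ALASNTNKVV, ALGTSNTNKVV, ALAPSNTNKVV, ALATSNTNKVV, AMATSNTNKVV and ALGFSNTNKVV met the filter through MP alone. ALSASNTNKVV, ALSDTNTNKVV, ALSESNTNKVV, ALGSNTNKVV and ALANTNKVV met it through Naive alone. Without MP 1 and MP 5 there were 17 higher and 100 lower, and without Naive 1, 3 or 5 the higher count was 17, 17 and 18. Full-end loops gave 16 higher and 56 lower of 135 tested in the same fit.

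The loops higher in MP kept 1 serine in 20 of 29 cases, and 14 of the 29 start with AL. Those lower in MP kept 1 serine in 68 of 94 cases, and 30 of the 94 start with AL, so that a kept serine was common on both sides. ALASNTNKVV took 0.436, 0.975, 1.08, 0.544 and 0.465% of reads in MP 1 to 5 and 0.000348 to 0.00876% in Naive libraries. It was higher in all 5 MP libraries than in any Naive library, by 249 times on average (log2 fold change 7.96 ± 1.13, adjusted p = 0.000662 by edgeR). APSNTNKVV, a loop of 9 residues with proline as the only residue between the first alanine and the serine, took 0.643, 0.502, 1, 0.737 and 0.425% of reads in MP 1 to 5 and 0.00815 to 0.013% in Naive libraries. This is 62.5 times as much (log2 fold change 5.96 ± 0.50, adjusted p = 0.000189 by edgeR), again without overlap.

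ALGTSNTNKVV took 0.137, 0.0874, 0.00134, 0.78 and 0.145% of reads in MP 1 to 5, and was listed in 4 Naive libraries at up to 0.0205%. MP 4 stands far above the rest, MP 3 lies within the Naive range, and the call (log2 fold change 5.29 ± 1.83, adjusted p = 0.0294 by edgeR) was lost without MP 4 (adjusted p = 0.0621), Naive 1 (0.0626), Naive 3 (0.0653) or Naive 4 (0.0614). It was also lost when loops near a far more abundant CDR3 were added to that CDR3 (edgeR adjusted p = 0.0823). ALGASNTNKVV took 0.163, 0.166, 0.108, 0.481 and 0.134% of reads in MP 1 to 5 and 0.027 to 0.0619% in Naive (log2 fold change 2.19 ± 0.58, adjusted p = 0.00913 by edgeR; 0.108 without a filter on low counts). It was also listed in Tumour 2, at 0.675%, and in no other tumour. AASNTNKVV was higher in MP by 5.79 times, at 0.0374 to 0.0983% against 0.00833 to 0.0124% (edgeR adjusted p = 0.00194, and 0.0917 without a filter), without overlap.

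Another 5 named loops were higher in MP. ALAPSNTNKVV took 0.177, 0.429, 0.0556, 0.212 and 0.233% of reads in MP 1 to 5, and was listed in Naive 1 and 4 alone (edgeR adjusted p = 0.00619). ALATSNTNKVV took 0.0927, 0.117, 0.384, 0.319 and 0.056% of reads in MP 1 to 5, and in Naive it reached 0.00308% at most (edgeR adjusted p = 0.00347). AMATSNTNKVV stood at 0.091 to 0.18% in MP and reached 0.00712% in Naive (edgeR adjusted p = 0.00741). None of these 3 overlaps between the subsets. ALGFSNTNKVV stood at 0.0498 to 0.198% in MP against 0.00253% at most in Naive (edgeR adjusted p = 0.00312), also without overlap. AISNTNKVV took 0.11, 0.179, 0.102 and 0.212% in MP 1, 2, 4 and 5 and was not listed in MP 3, against 0.00213 to 0.0129% in Naive (edgeR adjusted p = 0.0318). It overlaps through MP 3, and leaving out any 1 Naive library lost its call (Naive 1 0.073, Naive 2 0.071, Naive 3 0.0555, Naive 4 0.0539, Naive 5 0.0731, adjusted p), as did leaving out MP 1 and MP 5 (0.0582).

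**Figure D4:**
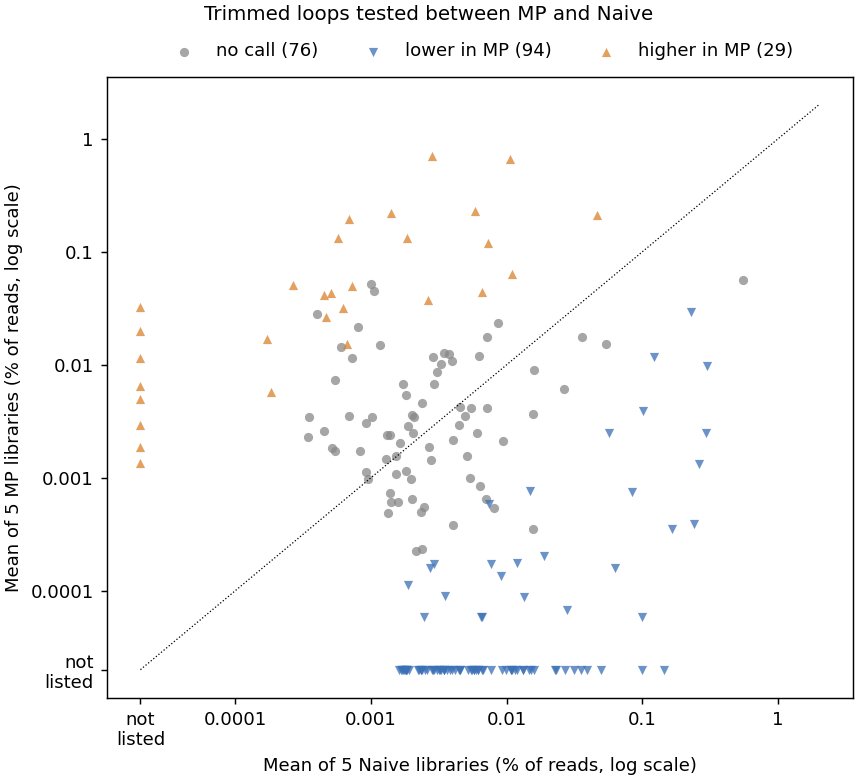
Mean share of reads of the 199 trimmed loops tested, in Naive (x axis) and MP (y axis) libraries (%, log scales; loops not listed in a group are drawn at the axis end). Triangles are loops called by edgeR, 29 higher and 94 lower in MP, grey points the 76 without a call; the dotted line marks equal shares.

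The lead loop of the Naive libraries, ALGPSNTNKVV, took 0.582, 0.695, 0.537, 0.48 and 0.461% of reads in Naive 1 to 5. In MP it took 0.116, 0.165 and 0.0019% in MP 3, 4 and 5 and was not listed in MP 1 and 2. All MP values lie below all Naive values, but the difference was not called (log2 fold change -3.29 ± 1.85, adjusted p = 0.153 by edgeR; called by DESeq2, adjusted p = 0.0185, and by edgeR without a filter, 0.0482). The loops called lower in MP include a group with the front ALS. ALSDSNTNKVV took 0.311, 0.19, 0.319, 0.325 and 0.356% of reads in Naive 1 to 5 and 0.00261 to 0.0195% in MP, 30.5 times less (log2 fold change -4.93 ± 0.72, adjusted p = 0.000662 by edgeR). ALSDTNTNKVV, in which threonine stands in place of the serine next to the core, took 0.28, 0.233, 0.268, 0.278 and 0.261% of reads in Naive 1 to 5. In MP it was listed in MP 1, 4 and 5 at up to 0.00385% (log2 fold change -7.61 ± 1.46, adjusted p = 0.00149 by edgeR).

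ALSASNTNKVV took 0.33, 0.224, 0.316, 0.317 and 0.28% of reads in Naive 1 to 5 and reached 0.00714% in MP (edgeR adjusted p = 0.00512). ALSESNTNKVV took 0.189 to 0.266% in Naive and at most 0.00102% in MP (edgeR adjusted p = 0.000782). ALSVSNTNKVV took 0.111 to 0.173% in Naive and was listed in no MP library, so that it was at least 329 times lower there when 3 reads per library are taken as the floor (edgeR adjusted p = 0.000662). The Naive values of all 5 named ALS loops lie above every MP value.

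Short loops were found on the Naive side too. ASNTNKVV, with 1 alanine before the serine, took 0.218, 0.221, 0.233, 0.215 and 0.267% of reads in Naive 1 to 5 and 0.0019 to 0.104% in MP, where MP 3 was highest (log2 fold change -2.97 ± 0.97, adjusted p = 0.023 by edgeR). ALGSNTNKVV took 0.131 to 0.237% in Naive and at most 0.00146% in MP (edgeR adjusted p = 0.00106). ALANTNKVV, without a serine, took 0.0784 to 0.127% in Naive, and its only 2 reads in MP put it 1697 times lower there, with a counting interval of 469.8 to 14012 (95%, exact Poisson). The loops AMREVSNTNKVV and AMRETSNTNKVV, of 12 residues, took 0.0557 to 0.173% and 0.0385 to 0.151% in Naive, against 0.00499 to 0.0246% and 0.000448 to 0.0093% in MP (edgeR adjusted p = 0.00133 and 0.0013). None of these loops overlaps between the subsets.

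Loops of 11 residues with the same first 3 residues, called the front here, and the same end could be common in different subsets. The fronts described were picked after their values were seen, and these sums carry no test. With the front ALG, serine at the fourth place (the full end) took 4.08 to 6.59% of reads in MP and 0.0827 to 0.11% in Naive. With proline the order was the opposite, with 0.461 to 0.695% in Naive and at most 0.165% in MP. Alanine and phenylalanine stood on the MP side, as given above, with threonine there on average but overlapping, and glycine on the Naive side, at 0.00402 to 0.0431% against at most 0.00034% in MP. Summed over all residues but serine, the front ALG took 0.733 ± 0.122% of reads in Naive and 0.704 ± 0.578% in MP.

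With the front ALS, by contrast, the loops without serine at the fourth place took 1.02 ± 0.143% in Naive and 0.0503 ± 0.0574% in MP, and that with serine 0.5 ± 0.0376% and 0.178 ± 0.148%. Within this front the loop with proline at the fourth place went the other way. It took 0.00264% in Naive and 0.0376% in MP on average and was called higher in MP by edgeR. Its ranges overlap, since MP 3 did not list it. In the front ALA both kinds stood on the MP side in sum: other residues took 0.505 ± 0.188% in MP against 0.0231 ± 0.022% in Naive, and serine 2.99 ± 0.794% against 0.0079 ± 0.00927%. Some residues of this front went the other way. The loop with arginine took 0.0152% in Naive on average, was listed in no MP library and was called lower in MP by edgeR. Those with glycine or valine were also listed in Naive and in no MP library. The front ALA was listed in no tumour in either form.

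Tumours drew most of their reads of trimmed loops from a few loops. The 5 most abundant held 79.7 ± 3.05% of these reads in Tumour libraries, against 50.4 ± 7.85% in MP and 35.7 ± 5.59% in Naive. Against MP, 76 trimmed loops were tested, of which 11 were higher in Tumour (14.5%, beside 7.68% of all 1666 CDR3s tested) and 42 lower (55.3%, beside 66%). Their median log2 fold change was -6.79, beside -7.57 for all. Against Naive, 152 were tested, with 15 higher (9.87%, beside 3.38% of all 4671) and 116 lower (76.3%, beside 86.7%), at a median of -7.55 beside -7.42. The MP and Naive comparisons share the 5 tumours. Of the lower loops, 36 and 105 were listed in no tumour. Of the higher loops, 4 were listed in no MP library and 4 in no Naive library. All of these passed the filter only through the group that holds them.

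The counts of lower loops moved with single libraries: against MP they were 23 without MP 1, 27 without MP 4, 20 without MP 5 and 11 without MP 1 and MP 5, and against Naive 75 without Naive 4. With every loop that lay 1 substitution from a CDR3 of 100 times its reads or more added to that CDR3, 5 were higher against MP and 7 against Naive. All 11 and all 15 higher loops had 11 residues, 9 and 12 of them had the front AAS, and 8 and 11 kept 1 serine before the core. Whether these shares differ from those of all CDR3s was not tested. In the same fits 4 of 51 full-end loops were higher against MP and 5 of 117 against Naive.

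AASASNTNKVV led the trimmed loops of every tumour. It took 3.62, 3.51, 3.99, 4.5 and 2.35% of reads in Tumour 1 to 5, which was 49.8, 35.5, 28.6, 43.2 and 42% of their reads of trimmed loops. Outside the tumours it was listed in MP 5 alone, with 31 reads or 0.00453%. Against Naive it was at least 7156 times higher with 3 reads per library as the floor, and by edgeR it was called against both Naive (adjusted p = 3.14e-05) and MP (log2 fold change 11.93 ± 2.76, adjusted p = 0.0107). It passed the filter on low counts through the tumours alone, as did AASAANTNKVV, AASLSNTNKVV, AATASNTNKVV and AASGSNTNKVV. The same held for AASPSNTNKVV against Naive, and for AAGASNTNKVV and AVSASNTNKVV against MP.

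AASPSNTNKVV, the loop with proline at the fourth place, took 0.884, 1.74, 2.76, 1.25 and 0.769% of reads in Tumour 1 to 5. It was present at low level elsewhere, with 0.000471 to 0.000854% in Naive, and at 0.07, 0.00279, 0.0167 and 0.0708% in MP 1, 2, 4 and 5 and was not listed in MP 3. The tumours lie above every other library (against MP log2 fold change 5.53 ± 1.86, adjusted p = 0.0183; against Naive log2 fold change 11.17 ± 0.80, adjusted p = 1.27e-05 by edgeR), though the call against MP was lost with TMM factors (adjusted p = 0.0631). AASAANTNKVV, which differs from the lead by alanine in place of the serine, took 1.04, 1.24, 2.06, 1.54 and 0.163% of reads in Tumour 1 to 5. Tumour 5 was lowest, and no Naive or MP library exceeded 0.00263% (against MP log2 fold change 10.70 ± 2.44, adjusted p = 0.0107; against Naive log2 fold change 12.67 ± 1.76, adjusted p = 9.91e-05 by edgeR). AASLSNTNKVV took 0.259, 0.525, 0.168, 0.224 and 0.256% of reads in Tumour 1 to 5, and elsewhere was listed in MP 5 alone, at 0.00424% (edgeR adjusted p = 0.0158 against MP and 2.67e-05 against Naive).

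The other named tumour loops were uneven between tumours. AVSASNTNKVV, with valine in place of the second alanine of the lead, took 0.292, 1.27 and 0.926% in Tumour 2, 3 and 4 and was not listed in Tumour 1 and 5. It was listed at up to 0.00493% in Naive and 0.0147% in MP. It was called against Naive (log2 fold change 7.88 ± 2.73, adjusted p = 0.0193 by edgeR) but not against MP (adjusted p = 0.0581), although it was against MP by DESeq2 (0.021), without a filter (0.0406) and without Tumour 1 (0.0357) or Tumour 5 (0.0331). AAGASNTNKVV took 0.000268, 0.0036, 0.25, 0.00807 and 0.558% of reads in Tumour 1 to 5, with most of it in Tumour 3 and 5. Tumour 1 and 2 lie within the Naive range, which reached 0.00503% (edgeR adjusted p = 0.018 against MP and 0.0182 against Naive). The call against Naive was lost when loops near a far more abundant CDR3 were added to it (0.0656).

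AATASNTNKVV took 0.0567, 0.295 and 0.32% in Tumour 1, 3 and 4 and was not listed in Tumour 2 and 5, and no other group lists it (edgeR adjusted p = 0.0173 against MP and 0.0171 against Naive; 0.0774 against MP without MP 1 and MP 5). AASGSNTNKVV took 0.139, 0.179, 0.0784 and 0.221% in Tumour 1, 2, 3 and 4 and was not listed in Tumour 5. It was called against Naive (edgeR adjusted p = 0.0102) and not against MP (0.084), with calls against MP without Tumour 5 (0.0425) and without MP 1 and MP 5 (0.0337). The other 7 named tumour loops each differ from the lead by 1 substitution. Each tumour listed 14 to 26 CDR3s at that distance from the lead, of which 7 to 9 had over 1% of its reads.

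**Figure D5:**
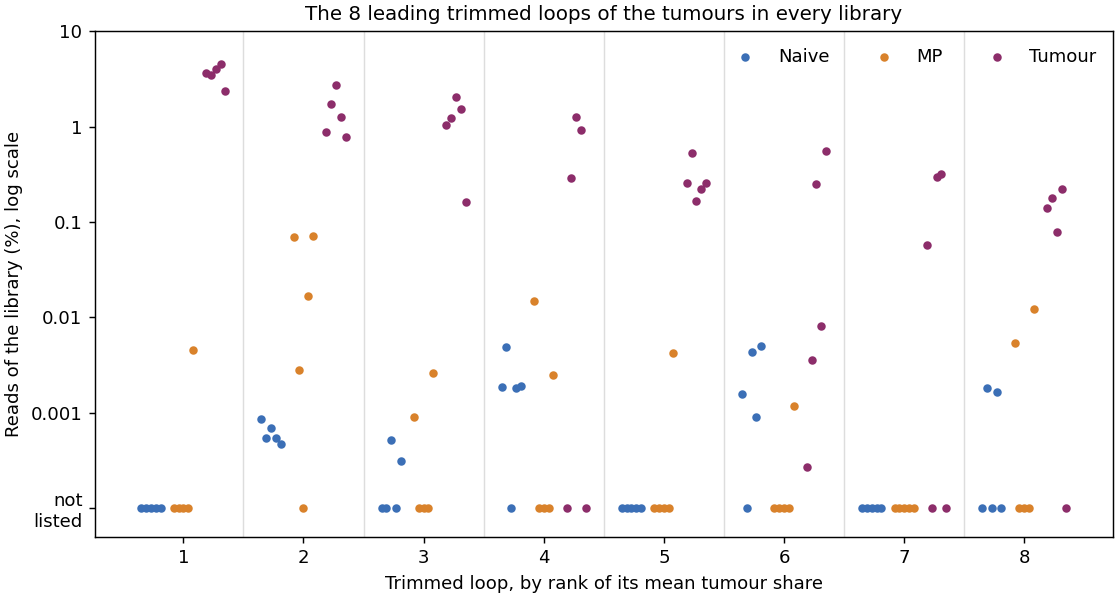
Share of reads (y axis, %, log scale; libraries that do not list a loop are drawn at the bottom) of the 8 trimmed loops with the highest mean tumour share among those in at least 2 tumours, by rank (x axis), in every library. The first is the lead AASASNTNKVV, then come the loop with proline (AASPSNTNKVV) and that without a serine (AASAANTNKVV). Rank 4 is AVSASNTNKVV, rank 5 is AASLSNTNKVV, rank 6 is AAGASNTNKVV, rank 7 is AATASNTNKVV and rank 8 is AASGSNTNKVV. At ranks 1, 2, 3 and 5 all 5 tumours lie above all other libraries.

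The front AAS with 1 serine before the core carried many residues at the fourth place in tumours, and in some other libraries too. Of the 19 residues other than serine, 18 were listed somewhere, and 10, 11, 4, 13 and 8 of them in Tumour 1 to 5. Naive 1 to 5 listed 6, 6, 1, 3 and 4 of them, and MP 1 to 5 listed 7, 2, 0, 3 and 11. All but the lead itself differ from it by 1 substitution, and how many are reading errors was not tested. Together the 18 took 5.06, 6.47, 7, 6.39 and 3.68% of reads in Tumour 1 to 5, 62.5% of the reads of trimmed loops on average, against at most 0.00767% of reads in Naive and 0.129% in MP. The loop with serine there, AASSSNTNKVV, which has the full end, took 0.606, 0.728, 0.687, 0.649 and 0.0588% of reads in Tumour 1 to 5. It stood at 0.0101 to 0.0115% in Naive and at most 0.0192% in MP, so that each tumour lies above both. The front AAS as such was not rare outside tumours: CDR3s of any end that start with AAS held 20.3 ± 2.35% of all Naive reads, 14.7 ± 1.69% of those in MP and 21.2 ± 3.08% in Tumour.

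Of the 4 loops that lead a Naive or MP library, ALGPSNTNKVV, ALASNTNKVV and ALGTSNTNKVV were listed in no tumour, and APSNTNKVV in Tumour 2 alone, at 0.0194%. With 3 reads per tumour as the floor, ALGPSNTNKVV was at least 1413 times lower than in Naive (edgeR adjusted p = 1.41e-05) and ALASNTNKVV at least 1794 times lower than in MP (edgeR adjusted p = 0.0101). Both passed the filter on low counts only through the group that lists them. ALSDTNTNKVV was listed in Tumour 5 alone, at 0.0793%, and its difference from Naive was not called (edgeR adjusted p = 0.128).

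Most trimmed loops were listed in a single library of their group, while the few that recurred in all 5 carried most reads. Of 2428 trimmed loops listed in Naive libraries, 1617 were in 1 library and 115 in all 5, and the 115 held 76.6 ± 9.89% of the reads of trimmed loops (SD, n = 5). MP libraries listed 803, of which 587 were in 1 library and 27 in all 5, and the 27 held 60.4 ± 8.46%. Tumour libraries listed 306, of which 231 were in 1 library and 13 in all 5, and the 13 held 72.9 ± 4.96%. For full-end loops only 2 of 86 recurred in all 5 tumours, with 46.2 ± 24.6% of their reads. Over all CDR3s, 68.6, 77.4 and 85.9% of those listed in Naive, MP and Tumour were in 1 library, against 66.6, 73.1 and 75.5% of trimmed loops. CDR3s in all 5 libraries of a group held 78.7, 65.8 and 35.3% of all reads, so that trimmed loops lie near the whole library in Naive and MP and above it in Tumour; this difference was not tested.

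Many trimmed loops of one group were also listed in another. Of the 306 trimmed loops of tumours 139 (45.4%) were also listed in Naive, which is 5.72% of the 2428 Naive loops, and 89 (29.1%) in MP, 11.1% of the 803 MP loops. MP and Naive shared 381, which is 47.4% of the MP and 15.7% of the Naive loops. Over all CDR3s, 35% of those in tumours were also listed in Naive and 25.7% in MP, and 42.5% of those in MP were listed in Naive. The 145 trimmed loops listed in tumours alone (47.4%) held 7.29 ± 4.65% of the tumour reads of trimmed loops, beside 59.1% of all tumour CDR3s with 33.2% of all reads. Most tumour reads of trimmed loops thus lie in loops listed elsewhere too, often at very few reads, as AASASNTNKVV shows. The overlap by name depends on how many loops a library lists, and MP 1 and MP 5 list the most in MP.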

How the data were processed

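Read counts per CDR3 peptide of the T cell receptor alpha chain were used as deposited by the authors, 1 list per library, 15 libraries, lowest listed count 2. Per the labels' protocols, RNA was taken with Trizol, amplified by arm-PCR and read on Roche 454. Which aligner and error filter were used, and whether reads carried molecular identifiers, is not given in the sources used here. PCR reads may therefore not be independent molecules, and intervals and floors cover counting error only.

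Shares are reads over a library's total (547665 to 943699). CDR3s, and end classes (reads summed over the last 7 residues), were tested if 3 or more libraries held 10 or more reads, with edgeR 4.0.16 (R 4.3.3; robust quasi-likelihood, library size = total reads), each pair of groups fitted alone, with Benjamini-Hochberg adjustment over all features and a threshold of 0.05. Errors after ± are SD for shares and standard errors for log2 fold changes. The script was tested on simulated counts. Alternatives were TMM factors, DESeq2 1.42.0, other filters, each library left out, the library number as a block, loops near a far more abundant CDR3 added to it, and MP 1 and MP 5 left out together; for shares of reads the last was chosen after seeing the data.

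The named loops were, for MP against Naive, the 10 of highest mean share among those called in each direction, the lead of each library, and for tumours the 8 with the highest mean share among those called higher and the 8 with the highest mean share listed in at least 2 tumours; end classes were to be named if called between MP and Naive. The members and lists were chosen with earlier results of these data known. Deviations of the libraries did not settle whether library numbers pair the MP and Naive samples, and the main fits used no block. RefSeq (GRCm38.p6) lists Traj34 among 60 Traj segments; its sequence was not checked, and V and J calls were not used here.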

Additional observations from a re-analysis of the deposited data

Results flagged for a closer look

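Of 43 groups of 5 libraries checked, 6 held a library far from the other 4 by Dixon's criterion, where chance gives about 1 in 20 such groups. MP 4 was the highest MP library in 4 of them: the trimmed share of reads with the core was 30.3%, loops without a serine before the core took 1.16% of reads, ALGTSNTNKVV took 0.780% and ALGASNTNKVV 0.481%. Naive 2 was the lowest Naive library for ALSDSNTNKVV, at 0.190% of reads. Tumour 2 was the highest tumour for AASLSNTNKVV, at 0.525%.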

How the results depend on the processing

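Of 269 alternative values of the shares and counts, 220 kept their direction and size and 49 moved; no loop named here changed direction under any alternative run. Trimmed loops called higher and lower in MP than in Naive (29 and 94) became 87 and 532 without a filter, 37 lower at 50 reads or more, and 17 higher without MP 1 and MP 5. Against MP, tumours had 46 higher and 172 lower without a filter, 23 lower at 50 reads or more, 5 higher with near loops added to the abundant CDR3, and 11 lower without MP 1 and MP 5. Against Naive they had 33 higher and 720 lower without a filter, 42 lower at 50 reads or more, and 7 higher with near loops added. End classes between MP and Naive were 1 higher and 2 lower by DESeq2, 1 lower without a filter and 4 lower without MP 1 and MP 5. Tumour against MP, they were 1 higher and 3 lower without a filter, 1 higher and 0 lower without MP 1 and MP 5, 0 lower at 50 reads or more and 0 lower by DESeq2; against Naive, 1 was higher without a filter and 3 lower at 50 reads or more. The full end in Tumour against Naive turned to 0.80 with DESeq2. By distinct CDR3 the trimmed share was 70.1% in Naive and 67.1% in MP, and with near loops added the trimmed loops' share of distinct CDR3s was 2.93% in MP and 4.53% in Tumour. The causes were not tested.

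Leaving out 1 library gave 17 to 27 higher and 63 to 104 lower for MP against Naive, 9 to 12 and 20 to 48 for Tumour against MP, and 13 to 16 and 75 to 125 for Tumour against Naive, with 0 to 1 and 0 to 2, 2 and 0 to 3, and 2 and 4 to 7 end classes. Whether library numbers pair the MP and Naive samples was not settled. Correlations of their deviations were only 0.0125 to 0.047, but 4 of 5 matched their own number best. With tumours the correlations were -0.0363 to 0.0214. With the replicate block the calls were 20 higher and 97 lower, 5 and 12, and 11 and 124 for loops, and 0 and 2, 2 and 1, and 2 and 7 for end classes. Among the named loops the block lost the calls of ALGASNTNKVV (edgeR adjusted p = 0.261), AASNTNKVV (0.202), AISNTNKVV (0.112), AMREVSNTNKVV (0.0714) and ASNTNKVV (0.0505) between MP and Naive, of AASPSNTNKVV against MP (0.0724), and of AVSASNTNKVV (0.295) and AAGASNTNKVV (0.135) in tumours against Naive; it added that of ALGPSNTNKVV between MP and Naive (0.0142). Other scalings moved the median by up to -1.49 (TMM, CDR3s, Tumour against MP) and 2.44 (DESeq2, end classes, Tumour against MP) on the log2 scale. Loops of few reads are limited by depth.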
